A study of Mus musculus with 2 samples.

Results

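The 171 gene rows described here carry the names of proteins of the mouse's cytosolic and mitochondrial ribosomes, 93 and 78 rows of the 54532 in the count table. They were chosen by name alone, as rows whose symbol starts with Rpl, Rps, Mrpl or Mrps and a digit, or is Rplp0, Rplp1, Rplp2 or Rpsa. Rows with -ps in the symbol, which marks pseudogenes, and the Rps6k kinases were left out. Of the cytosolic members, 7 are nonetheless annotated as processed pseudogenes in GENCODE M21, 5 of them measured, among them Rps4l, Rps3a3 and Rpl37rt, and Rps19bp1 is a partner of a subunit. All 78 mitochondrial members are annotated as protein-coding. Of the 171, 167 had counts summing to at least 20 over both libraries and are called measured: 89 cytosolic and all 78 mitochondrial genes. The 4 others were the cytosolic paralogs or copies Rpl3l, Rpl10l and Rps12l1, with 0 counts in both libraries, and Rpl32l, with 4 and 8 counts. A count of 0 allowed up to 0.133 CPM (counts scaled to a library of 1000000) with 2.5HIP-PLG and 0.115 without (3 counts, counting error only).

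The libraries were made from effector T cells of the BDC-2.5 line, which carries a transgenic T cell receptor specific for a hybrid insulin peptide of pancreatic beta cells. Cells had been activated and transferred into NOD.scid mice, which have no T or B cells of their own, and both libraries share this origin. One group received 1.75 mg of nanoparticles of poly(lactide-co-glycolide) carrying the peptide (2.5HIP-PLG) by vein 1 day after the transfer, and the other was labelled Untreated. On day 6, CD4-positive cells that lacked the reporter for Foxp3 (a green fluorescent protein) were isolated by flow sorting. Spleens and lymph nodes of 4 mice were pooled in each group, and each pool gave 1 library, without replicates. The age of the mice is not given in the labels. The series is about how tolerance arises in these cells. Here the question was whether the messages of either ribosome differed between the libraries.

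Cytosolic ribosomes read the messages made in the nucleus, while mitochondrial ribosomes, built from nuclear-encoded proteins around RNAs encoded in the mitochondrial genome, read only the few messages of that genome. Ribosomal protein genes are among the most strongly expressed genes of any dividing cell, and T cells enlarge and make ribosomes when they are activated. Most cytosolic ribosomal protein messages begin with a C followed by a run of C and T, the terminal oligopyrimidine (TOP) start, through which the kinase mTORC1 and the RNA-binding protein Larp1 control their translation.

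The depth was 22580648 counts for 2.5HIP-PLG and 26036623 for Untreated, and every pair of counts stands in this order. A ratio divides the scaled count of 2.5HIP-PLG by that of Untreated and carries an exact 95% interval in brackets for counting error alone. Because each group was sequenced once, the spread between replicates is unknown and no test across samples was made. A gene is called higher when its ratio was at least 1.5, or lower when its inverse was, with an interval excluding 1. The 10 markers of CD4 T cells were all measured, with 176554 and 166778 counts in sum. Of markers of other cells, 4 of B cells had 7 and 16 counts in sum, with Ms4a1 at 0 in both libraries, and the CD8 T cell markers Cd8a and Cd8b1 had 0 and 9, and 304 and 272. The sums were 302 and 94 for 5 of neutrophils, 363 and 720 for 5 of dendritic cells, 496 and 528 for 5 of macrophages and monocytes, 286 and 456 for 3 of NK cells, and 1119 and 1238 for 4 of erythroid cells. The part of these cells in the results below was not tested. Fewer cells of a type and less RNA per cell cannot be told apart in pooled cells.

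The TOP start can be seen in the reference sequence of several cytosolic members. The windows below run from 10 bases before the annotated start to 20 bases from it on, 5′ to 3′ on the coding strand, from RefSeq on GRCm38.p6. They are shown because this start was found in cytosolic and not in mitochondrial members. Capitals mark the C at the start and the pyrimidines that follow it.
Rps6: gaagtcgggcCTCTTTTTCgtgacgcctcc
Rpl28: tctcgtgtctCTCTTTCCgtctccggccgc
Rplp2: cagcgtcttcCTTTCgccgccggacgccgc
Rps10: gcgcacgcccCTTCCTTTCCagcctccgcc
Rps27: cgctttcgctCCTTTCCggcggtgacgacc
The windows of 4 mitochondrial members with divergent ratios, cut in the same way, hold no such run at the start and so no capitals.
Mrps6: tcgccgtccgggagctgaccggccgtgttc
Mrps2: cgggcaggaagagtctctgcaggatctctg
Mrpl33: gcatgccccggaagtagtcgttgagctctt
Mrpl55: tgcgctccgtggcgtcatcaccgcgcgccg
Among the 137 members found in the RefSeq promoter table, 15 of 68 cytosolic genes (22.1%) had a C at the annotated start followed by at least 4 more pyrimidines, against 0 of 69 mitochondrial genes and 2.67% of 17492 protein-coding genes. Allowing the start to lie up to 5 bases away gave 45.6% of cytosolic, 24.6% of mitochondrial and 21.5% of all genes. An annotated start need not be the start most used in these cells.

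The cytosolic and mitochondrial members were alike in another feature of their promoters. The letters CCGGAAG, part of the site of ETS factors, were searched on both strands from 250 bases before to 50 bases after the start. They were found in 38.2% of cytosolic and 37.7% of mitochondrial members, against 12.9% of all protein-coding genes in the table. ATGGCGG, part of the YY1 site, was found in 16.2%, 18.8% and 6.05%, and GCATGCG, part of the NRF1 site, in 7.35%, 11.6% and 4.96%. A match is a description of the letters and not evidence of binding. The 250 bases before the start of Rpl15 (chromosome 14, 18270987 to 18271236, minus strand) and of Mrpl43 (chromosome 19, 45006443 to 45006692, minus strand) are shown as the example of each type with the most ETS matches, which stand in capitals, 2 in each.
Rpl15: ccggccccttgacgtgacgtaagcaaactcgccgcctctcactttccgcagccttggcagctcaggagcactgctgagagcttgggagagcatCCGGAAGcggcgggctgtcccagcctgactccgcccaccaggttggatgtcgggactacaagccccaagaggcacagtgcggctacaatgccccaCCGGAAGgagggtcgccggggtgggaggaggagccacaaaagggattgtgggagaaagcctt
Mrpl43: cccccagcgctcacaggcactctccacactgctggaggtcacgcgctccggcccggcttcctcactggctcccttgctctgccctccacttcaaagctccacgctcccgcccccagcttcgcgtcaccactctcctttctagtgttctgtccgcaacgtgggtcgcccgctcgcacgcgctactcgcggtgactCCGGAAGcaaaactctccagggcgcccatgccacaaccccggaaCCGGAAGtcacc
Members with the ETS letters had a median log2 ratio of 0.00 among 26 cytosolic and 0.05 among 26 mitochondrial genes. Those without had 0.00 among 39 and 0.04 among 43 genes. The 14 measured cytosolic members with the TOP start had ratios from 0.901 to 1.07, and the 51 without from 0.799 to 1.15. Their median log2 ratios were -0.01 and 0.00. The low end of 0.799 is Rpl39l, with only 11 and 16 counts (0.335 to 1.83), and a range also widens with the number of genes.

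No cytosolic ribosomal protein gene differed between the libraries by the calling rule. Of 89 measured genes, 0 were higher and 0 lower, where 5.32% of all 13902 measured genes were higher and 9.42% lower. Lowering the ratio to 1.2 still called 0 in either direction, against 13.5% of all measured genes higher and 16.7% lower. The median log2 ratio was 0.00, as over all measured genes (0.00), and the members ran from -0.34 (Rps4l) to 0.22 (Rps3a3). Summed over the type, the counts were 1343191 and 1554124, a ratio of 1.005 (1.002 to 1.007) that turned to 0.997 when libraries were scaled by their totals and to 0.986 with upper quartile scaling. The cytosolic members took 5.95% of the 2.5HIP-PLG library and 5.97% of the Untreated library. Split by symbol, the large subunit held 785465 and 905762 of these counts (ratio 1.008) and the small subunit 557726 and 648362 (1.000).

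**Figure D1:**
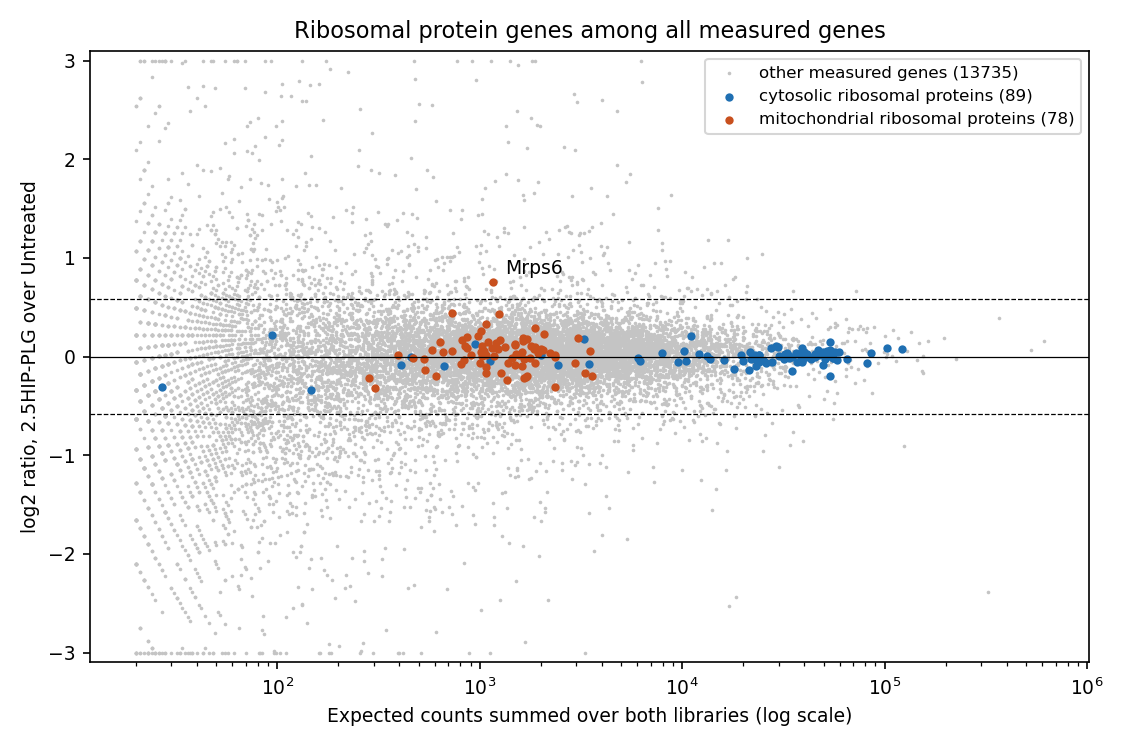
The log2 ratio of each measured gene (vertical axis, 2.5HIP-PLG over Untreated) is plotted against its counts summed over both libraries (horizontal axis, log scale), with cytosolic members in blue, mitochondrial members in orange, other genes in grey and 1.5-fold differences in either direction as dashed lines. The 93 genes beyond a log2 ratio of 3 in either direction are drawn at that limit, and of the members only Mrps6, at 0.75, lies outside the dashed lines.

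The genes that make up the ribosome proper lay in a narrow band. Leaving out paralogs, copies and Rps19bp1, a partner of Rps19 that is not a subunit, 74 of 77 cytosolic subunits (96.1%) had a ratio between 0.9 and 1.1. Of the 3173 measured genes with counts in the range of these subunits, 1671 (52.7%) did. The SD of the log2 ratio was 0.06 over the subunits and 0.31 over those genes. The median count sum was 34914 over the subunits and 6671 over those genes, so counting error was larger in the latter. Rpl22 and Rplp1 lay above the band.

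Rpl22, a large subunit protein at the exit tunnel that alpha-beta T cells need during their development, had 5523 and 5567 counts, and the ratio after scaling for depth was 1.15 (1.11 to 1.2; chromosome 4, 152325742 to 152334071). Its paralog Rpl22l1, whose message Rpl22 is known to repress, had 1094 and 1346 counts, a ratio of 0.945 (0.872 to 1.02). Rpl22l1 thus made up 16.5% of the counts of the pair after 2.5HIP-PLG and 19.5% without treatment. The ratio of Rpl22 was 1.22 times that of Rpl22l1 (1.12 to 1.33), which does not depend on how the libraries were scaled. Per kb of exon the levels were 119 and 103 for Rpl22 and 86.7 and 91.8 for Rpl22l1, so the paralog stood close to the subunit in both libraries. Both counts were divided by the quantification among similar sequences and were not whole.

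The stalk of the large subunit, which recruits the elongation factors, has Rplp0 as its base, Rplp1 and Rplp2 as its arms and Rpl12 beside it. Rplp1 had 26138 and 27384 counts (1.11, 1.09 to 1.13; chromosome 9, 61913284 to 61914542) and Rplp0 had 49216 and 53900 (1.06, 1.05 to 1.07). Rplp2, with 20812 and 24063 counts, had a ratio of 1.01 (0.987 to 1.02), and Rpl12, with 23098 and 27372, had 0.981 (0.964 to 0.998). Proteins of one structure therefore lay on both sides of 1. Rpl5 and Rpl11, which carry the ribosomal 5S RNA and bind Mdm2 when assembly fails, had 21979 and 25279 counts (1.01) and 19215 and 21899 counts (1.02). Of 9 exit tunnel proteins, Rpl22 among them, 4 had an interval above 1 and 1 below, with a median log2 ratio of 0.02. Among the 3173 measured genes in the count range of the cytosolic subunits, 1360 had an interval above 1 and 986 below.

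Ratios below 1 were found for Rps27, with 15240 and 19659 counts (0.901, 0.882 to 0.921), Rps25, with 9381 and 11948 (0.913, 0.888 to 0.938), and Rps19, with 7939 and 10074 (0.916, 0.890 to 0.944). Each of these 3 small subunit proteins lay outside counting error but well inside the 1.5-fold limit. Rps19 is the gene most often mutated in Diamond-Blackfan anaemia, an inherited failure of red cell production caused by loss of a copy of a ribosomal protein gene. Of 14 genes of that disease among the members, 3 had an interval above 1 and 5 below, with ratios within 0.9 to 1.1 in all 14 and a median log2 ratio of -0.01. Over all 89 measured cytosolic members, 25 intervals lay above 1, 19 below and 45 held it. Over the 77 subunits without paralogs, copies and Rps19bp1, the numbers were 24, 19 and 34. Among the 3173 measured genes in the count range of these 77 subunits, 1360 lay above, 986 below and 827 held it, at a lower median count sum (6671 against 34914). Upper quartile scaling moved the numbers of the 89 members to 12, 36 and 41, so the direction of the small differences rests on the scaling.

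Other cytosolic proteins whose function is well known lay close to 1 as well. Rps6, the substrate of the S6 kinases, had 28081 and 31690 counts (1.03, 1.01 to 1.05). Rpsa, which also serves as a laminin receptor, was the most abundant member by counts, with 58121 and 64081 (1.05, 1.04 to 1.07). Rps3, at the entry of the messenger RNA channel, had 25549 and 28300 counts (1.05, 1.03 to 1.07). These 3 had intervals above 1 by amounts far under the 1.5-fold limit. Rps20, of the head of the small subunit, had 13924 and 14998 counts (1.08, 1.05 to 1.105), next to Rps3 in the ribosome. Rpl13a, which also silences inflammatory messages in monocytes, had 36701 and 44589 counts (0.957, 0.944 to 0.970), and Rpl31, at the exit tunnel, had 10325 and 12833 (0.935, 0.911 to 0.960).

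**Figure D2:**
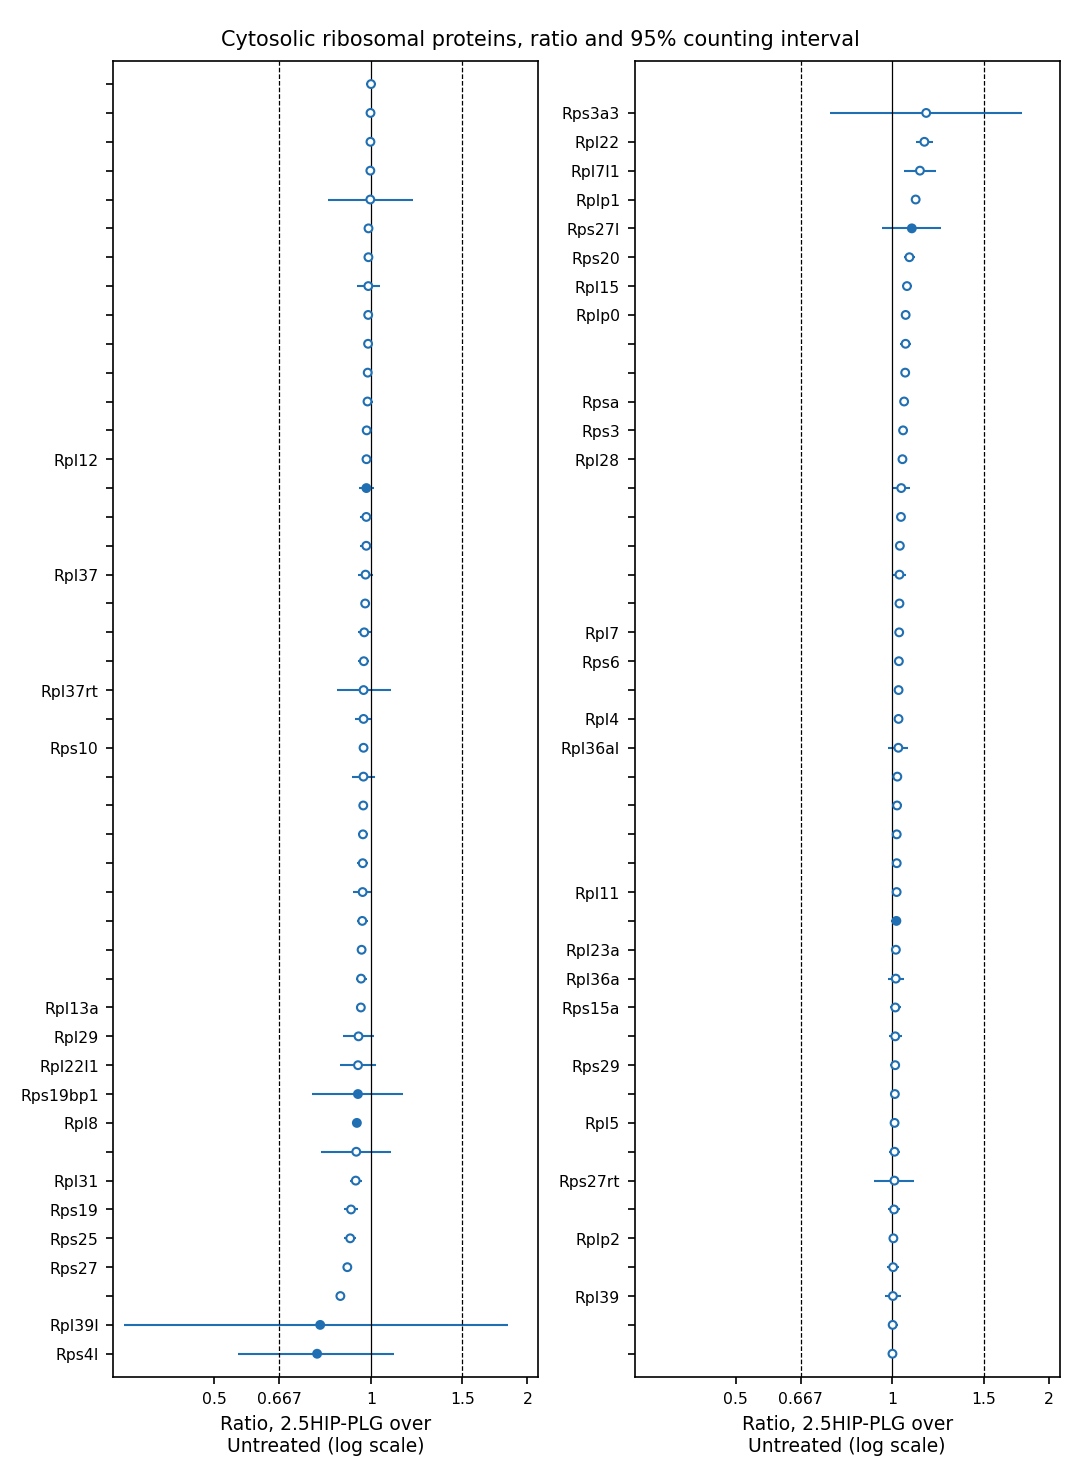
Ratio of each of the 89 measured cytosolic members (points, log axis) with its 95% counting interval (lines), ordered by ratio from the bottom of the left panel to the top of the right one, with filled points for genes whose counts were whole in both libraries and dashed lines at 1.5-fold in either direction. Names are printed for the members that the text names. All points lie between the dashed lines, from 0.788 for Rps4l to 1.16 for Rps3a3, and the widest intervals belong to paralogs and copies with few counts.

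Most paralogs and copies paired with a subunit had far fewer counts than it, Rpl22l1 and Rpl36al less so. Rpl3l, found mainly in muscle, and Rpl10l, found mainly in testis, were at 0, and Rpl39l, another testis gene, had 11 and 16 counts beside 6103 and 7071 for Rpl39. Rps4l, with 59 and 87 counts (0.788, 0.557 to 1.11), and Rps3a3, with 47 and 47 (1.16, 0.759 to 1.78), set the ends of the cytosolic range with intervals that hold 1. Rpl36al was the paralog with the largest share, 39.6% and 39.4% of the counts of its pair with Rpl36a. Rpl7l1, which acts in assembly of the large subunit, had 1608 and 1653 counts, a ratio of 1.13 (1.06 to 1.21), beside 23369 and 26335 (1.03) for Rpl7. Rpl37rt made up 6.46% and 6.51% of the pair with Rpl37.

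Rps27 shows why such rows need care. The coding sequences of Rps27 (chromosome 3, 90212522 to 90213651) and its paralog Rps27l (chromosome 9, 66946086 to 66949516) are given from the GENCODE M21 transcripts, with capitals in Rps27l at the 60 of 252 bases that differ.
Rps27: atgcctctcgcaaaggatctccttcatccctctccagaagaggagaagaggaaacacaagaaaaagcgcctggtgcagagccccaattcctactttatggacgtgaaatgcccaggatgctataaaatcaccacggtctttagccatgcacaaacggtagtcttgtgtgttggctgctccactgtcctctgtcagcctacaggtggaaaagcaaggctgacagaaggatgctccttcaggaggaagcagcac
Rps27l: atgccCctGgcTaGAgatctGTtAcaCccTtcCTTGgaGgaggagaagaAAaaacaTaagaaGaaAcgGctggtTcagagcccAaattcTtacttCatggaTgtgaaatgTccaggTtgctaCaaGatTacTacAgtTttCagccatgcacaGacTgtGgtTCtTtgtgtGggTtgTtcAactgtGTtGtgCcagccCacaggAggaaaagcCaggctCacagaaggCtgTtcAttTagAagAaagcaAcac
The 2 are 76.2% identical, and the longest stretch they share is 11 bases. Rps27rt, a gene without introns on chromosome 9 (114982366 to 114982739), has the coding sequence of Rps27 with 0 differences over 252 bases, so a read within it fits both. Rps27 had 15240 and 19659 counts, Rps27rt 934 and 1075 (1.01, 0.924 to 1.1), and Rps27l, a target of p53, had 457 and 487, which were whole (1.09, 0.958 to 1.24). The ratio of Rps27 was 0.826 times that of Rps27l (0.724 to 0.942).

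Counts of most cytosolic members were not whole, which shows that some reads were shared out but not how many. Only 10 of the 93 members had whole counts in both libraries, 7 of them measured, while 45 of the 78 mitochondrial members did. For 61 cytosolic members the table also held rows for pseudogenes named after them, against 3 mitochondrial members. Rpl8 was the most abundant member with whole counts, 22062 and 27283, at a ratio of 0.940 (0.924 to 0.957). The 10 members with whole counts summed to a ratio of 0.973 (0.960 to 0.985), against 1.006 (1.004 to 1.008) for the 83 others. Exons of 16 cytosolic and 23 mitochondrial members overlap those of another protein-coding gene in GENCODE M21.

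Cytosolic members are also hosts of small nucleolar RNAs, which guide the modification of ribosomal RNA and are cut from introns. In the annotation 30 of 93 cytosolic genes (32.3%) hold at least 1 small nucleolar RNA gene on their strand, 58 in all, against 0 of 78 mitochondrial genes and 1.18% of 21951 protein-coding genes. Rpl4 holds 5 of them and Rpl13a holds 4. The rows of these 58 RNAs had only 4 and 19 counts in sum, so their hosts' values do not come with a reading of the RNAs.

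The mitochondrial members were likewise close between the libraries, with 1 exception. Of 78 measured genes, 1 was higher (Mrps6) and 0 were lower, where 5.32% and 9.42% of all measured genes were. At a ratio of 1.2, 5 were higher (Mrps6, Mrpl16, Mrps2, Mrpl27 and Mrpl52) and 1 was lower (Mrpl33), against 13.5% and 16.7% of all measured genes. The median log2 ratio was 0.04, with members from -0.32 (Mrpl55) to 0.75 (Mrps6), and 13 intervals lay above 1, 8 below and 57 held it. Of the 6542 measured genes with counts in the same range, from 282 to 3597, 260 were higher and 342 lower. Their intervals lay above 1 in 1796 and below in 1540, and their log2 ratios had an SD of 0.48 against 0.17 for the members. The summed counts were 51187 and 58190, a ratio of 1.02 (1.01 to 1.03) that came to 1.003 with upper quartile scaling.

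Mrps6 encodes a protein of the mitochondrial small subunit that is related to bacterial S6. Its counts were 688 and 474, the ratio 1.69 (1.5 to 1.90; ENSMUSG00000039680). The gene lies on the plus strand of chromosome 16 (92058270 to 92112227, GRCm38), and its exons overlap those of Slc5a3 and Gm49711. All 3 genes start within 52 bases on the same strand in GENCODE M21. Slc5a3, the sodium-dependent carrier of myo-inositol, had 514 and 372 counts and was also higher (1.61, 1.40 to 1.84). The count table held no row named Gm49711, so it could not be analysed here. The counts of Mrps6 and Slc5a3 were not whole, and which of the 2 messages their shared reads came from cannot be told apart. Added together they had 1202 and 846 counts, a ratio of 1.65 (1.51 to 1.81).

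**Figure D3:**
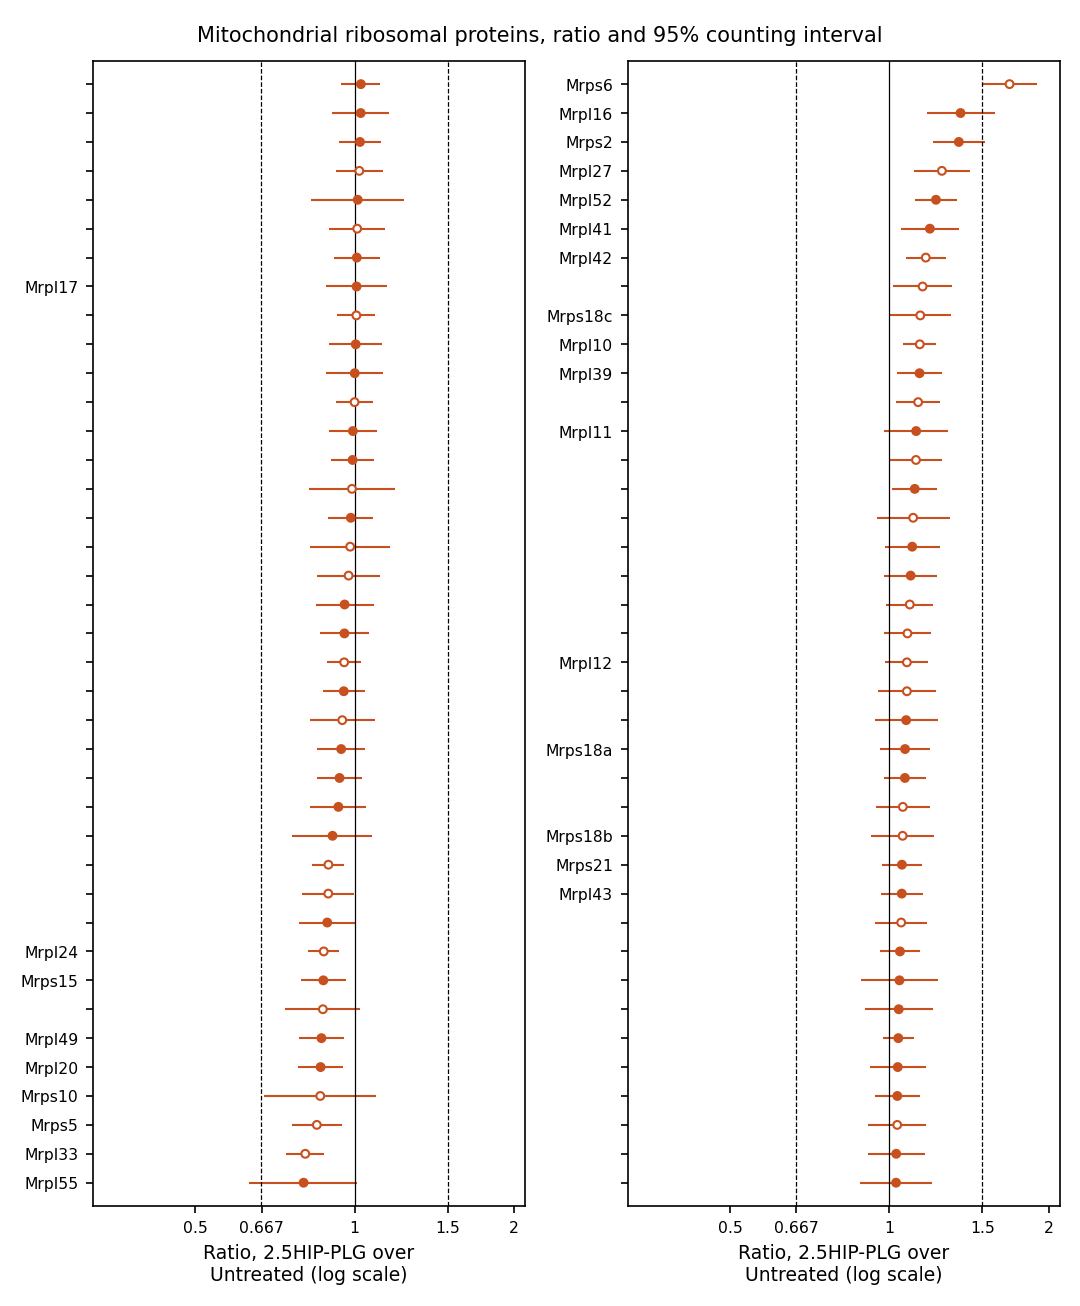
Ratio of each of the 78 mitochondrial members (points, log axis) with its 95% counting interval (lines), ordered by ratio from the bottom of the left panel to the top of the right one, with filled points for genes whose counts were whole in both libraries and dashed lines at 1.5-fold in either direction. Names are printed for the members that the text names. Mrps6, at 1.69, is the only point beyond a dashed line, and its counts were not whole.

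Mrpl16 and Mrps2 came next and had whole counts. Mrpl16, a large subunit protein related to bacterial L16, had 394 and 336 counts, a ratio of 1.36 (1.18 to 1.58). Mrps2, of the small subunit, had 668 and 574, a ratio of 1.35 (1.21 to 1.52; chromosome 2, 28468066 to 28471178). Neither overlaps exons of another protein-coding gene in the annotation. Mrpl27, related to the bacterial protein nearest the peptidyl transferase centre, had 560 and 518 counts (1.26, 1.11 to 1.42), and its exons overlap Eme1. Mrpl52, a mitochondria-specific protein of the central protuberance, had 965 and 916 counts (1.22, 1.12 to 1.34). In each of these 4 genes the 2.5HIP-PLG library had the larger raw count although it was the shallower library.

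Mrpl33, related to bacterial L33, had 959 and 1382 counts, a ratio of 0.807 (0.742 to 0.877; chromosome 5, 31596935 to 31664384). Mrpl55 had 124 and 180 counts, a ratio of 0.801 whose interval held 1 (0.632 to 1.01). The other members among the lowest 5 were Mrps5, of the small subunit, with 578 and 792 counts (0.848, 0.761 to 0.946), Mrps10, with 120 and 162 (0.861, 0.674 to 1.1), also of the small subunit, and Mrpl20, of the large subunit, with 704 and 949 (0.862, 0.781 to 0.952).

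Both subunits held members whose interval excluded 1. The subunit was read from the symbol alone, Mrpl as large and Mrps as small, which need not match the place of each protein in the ribosome. Of the 13 intervals above 1, 11 belonged to members named Mrpl and 2 to those named Mrps. Of the 8 below 1, 5 and 3 did, among 49 and 29 members. Among the 6542 measured genes in the count range of the mitochondrial members, 1796 had an interval above 1 and 1540 below. The mitochondria-specific Mrpl41 had 513 and 500 counts (1.19, 1.05 to 1.35) and Mrpl42 had 1036 and 1028 (1.17, 1.07 to 1.28). Mrpl39, at the exit tunnel, had 811 and 827 (1.14, 1.03 to 1.26). On the other side of 1 were Mrpl24, also at the exit tunnel, with 1544 and 2053 counts (0.874, 0.818 to 0.935), and Mrps15, of the small subunit, with 732 and 975 (0.873, 0.792 to 0.962). Mrpl49, with 720 and 967 counts (0.866, 0.785 to 0.954), overlaps exons of Syvn1.

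The structural groups of the mitochondrial ribosome held no other called gene. The mitochondrial stalk proteins Mrpl10 (1509 and 1537 counts), Mrpl11 (402 and 416) and Mrpl12 (866 and 933) had ratios of 1.14, 1.12 and 1.08, all above 1 under each of the 5 scalings, and of these the interval of Mrpl10 alone (1.06 to 1.23) excluded it. The 6 exit tunnel proteins had a median log2 ratio of -0.09, with 1 interval above 1 and 1 below. The 7 proteins of the central protuberance ran from -0.32 (Mrpl55) to 0.29 (Mrpl52). Mrps18a, Mrps18b and Mrps18c, which are named after bacterial S18 but are not alternatives for one place in the ribosome, had ratios of 1.07, 1.06 and 1.14. Their counts were 639 and 694, 410 and 450, and 429 and 436. The ratio of Mrps18a was 1.01 times that of Mrps18b (0.848 to 1.2). The 46 proteins with bacterial relatives had a median of 0.04 and the 30 specific to mitochondria 0.05.

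The comparison of both types with each other needs no scaling between libraries. Mitochondrial members made up 3.67% (exact Clopper-Pearson interval 3.64 to 3.70) of all ribosomal protein counts with 2.5HIP-PLG and 3.61% (3.58 to 3.64) without it. The odds ratio was 1.018 (1.006 to 1.030), and without Mrps6, left out after its value was seen, it was 1.012 (1.0001 to 1.025).

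Levels per kb of exon set the types apart far more than the treatment did. The median cytosolic subunit had 780 and 792 scaled CPM per kb, and the median mitochondrial member 16.8 and 16.9, a gap of 46.5-fold and 46.8-fold. Rplp1 was the highest cytosolic member (2329 and 2099), before Rpl23a (1824 and 1794) and Rps29 (1763 and 1739). Mrpl33 (89.2 and 111), Mrpl52 (87.4 and 71.4) and Mrps21 (86.0 and 81.4) led the mitochondrial members. The ends of the 2 ranges met, since Rpl29, the lowest cytosolic subunit in the 2.5HIP-PLG library at 86.6, had 91.5 in the Untreated library, below Mrpl33 in both. The length used was that of the merged exons of transcripts that GENCODE M21 marks as protein-coding and basic. Genes without such transcripts used their other exons. This merged length exceeds a single message in genes with alternative ends and lowers their level, as in Rps15a (5395 bases) and Mrpl17 (7605 bases). Across members the log2 levels of the libraries correlated at Pearson's r of 0.998 over 77 cytosolic subunits and 0.989 over 78 mitochondrial members, which share libraries and gene lengths.

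**Figure D4:**
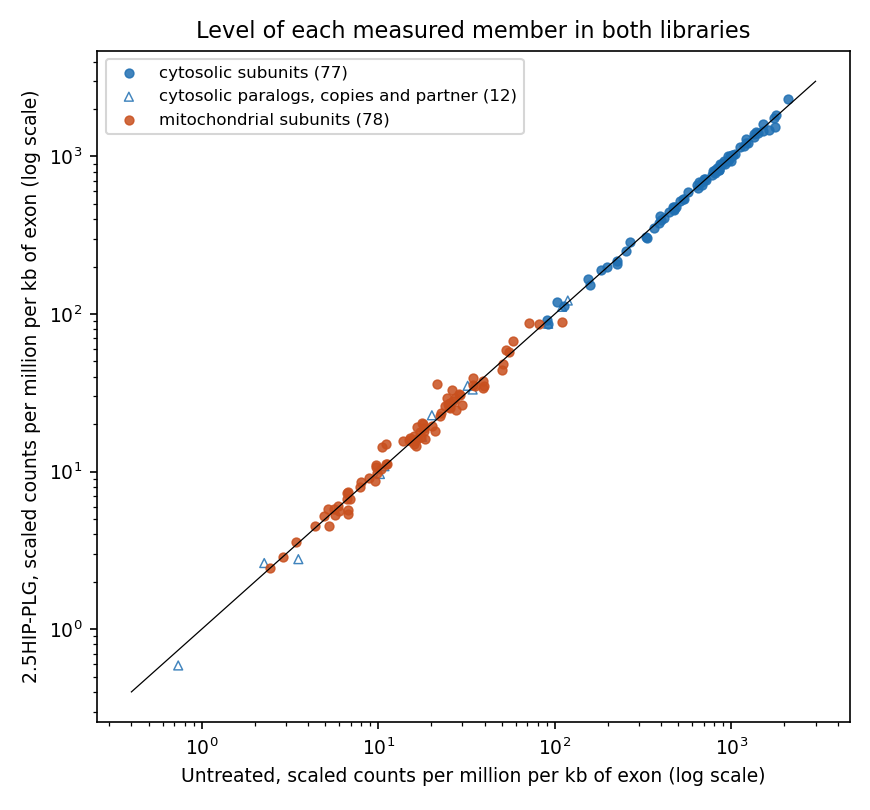
Level of each of the 167 measured members in the Untreated library (horizontal axis) and the 2.5HIP-PLG library (vertical axis), in scaled CPM per kb of exon on log axes, with cytosolic subunits as blue circles, other cytosolic members as open triangles, mitochondrial members as orange circles and equality as the line. Mitochondrial members lie between 2.43 and 111 in the Untreated library and cytosolic subunits between 90.2 and 2099, all near the line.

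Genes that encode ribosomal proteins under other names behaved like the members. Rack1, a scaffold on the small subunit, had 30873 and 36666 (0.979) and Fau had 15131 and 17487 (1.01). Neither was called, nor was any of the 5 mitochondrial ones, among them Gadd45gip1 (1.08, 0.970 to 1.21). For the lists that follow, the shares of all measured genes called are 5.32% higher and 9.42% lower at 1.5, and 13.5% and 16.7% at 1.2. Of 15 genes of RNA polymerase I transcription, which makes the ribosomal RNA precursor, 0 were called at 1.5 and 1 was lower at 1.2, Taf1d, with 1254 and 1877 counts (0.777, 0.723 to 0.835). The list had a median log2 ratio of 0.02, and Polr1b, its highest, had 344 and 353 counts (1.13, 0.974 to 1.32). Of 37 cytosolic assembly factors 0 were called at 1.5, and at 1.2 there were 3 higher, Nop2 (859 and 759; 1.32), Nop10 (1010 and 901; 1.3) and Nop58, a core protein of small nucleolar ribonucleoproteins (1588 and 1494; 1.24). Lower at 1.2 were Gnl3, or nucleostemin (582 and 913; 0.741), Nob1, which trims the small subunit RNA (0.773, 0.700 to 0.854), and Wdr12 (412 and 605; 0.792). The assembly list had a median of 0.08.

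Translation factors were near 1 in both compartments. Of 43 cytosolic factors 0 were called at 1.5, while 26 intervals lay above 1 and 4 below, and the median log2 ratio was 0.09. Among all 13902 measured genes 3581 lay above and 3458 below. Intervals narrow with counts, and these factors had a median count sum of 9902 against 1024 over all measured genes. Among the 3173 genes in the count range of the cytosolic subunits, 1360 lay above and 986 below. At 1.2, Eef1e1, a scaffold of the tRNA synthetase complex (408 and 348 counts; 1.36), Eif4e, which binds the cap (1715 and 1570; 1.27), and Eif1a (883 and 817; 1.26) were higher. Eif4a2, a helicase of the cap complex, was lower, with 5054 and 8125 counts (0.723, 0.698 to 0.749). The elongation factors Eef1a1, with 250359 and 277181 counts (1.05, 1.04 to 1.06), and Eef2, with 103118 and 121852 (0.984, 0.976 to 0.992), were near 1.

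Among 19 genes through which mTORC1 and Myc control ribosome synthesis, 1 was lower and 0 higher, beside 9.42% and 5.32% of all measured genes. It was Eef2k, the kinase that inhibits Eef2, with 186 and 333 counts (0.649, 0.540 to 0.779). At 1.2, Myc, a factor that activates ribosomal genes, was also lower, with 1115 and 1734 counts (0.748, 0.693 to 0.806), as were the mTOR partners Mlst8 (534 and 791; 0.785) and Rptor (1929 and 2799; 0.801) and the kinase Rps6kb2 (777 and 1132; 0.798). Max, the partner of Myc (3314 and 3060; 1.26), and Ddit4, an inhibitor of mTORC1 (7106 and 6793; 1.22), were higher at 1.2. Mtor itself had 1107 and 1282 counts (1.00, 0.926 to 1.09) and Larp1 had 4753 and 5521 (1.00, 0.963 to 1.04). RNA counts do not read the activity of these kinases.

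**Figure D5:**
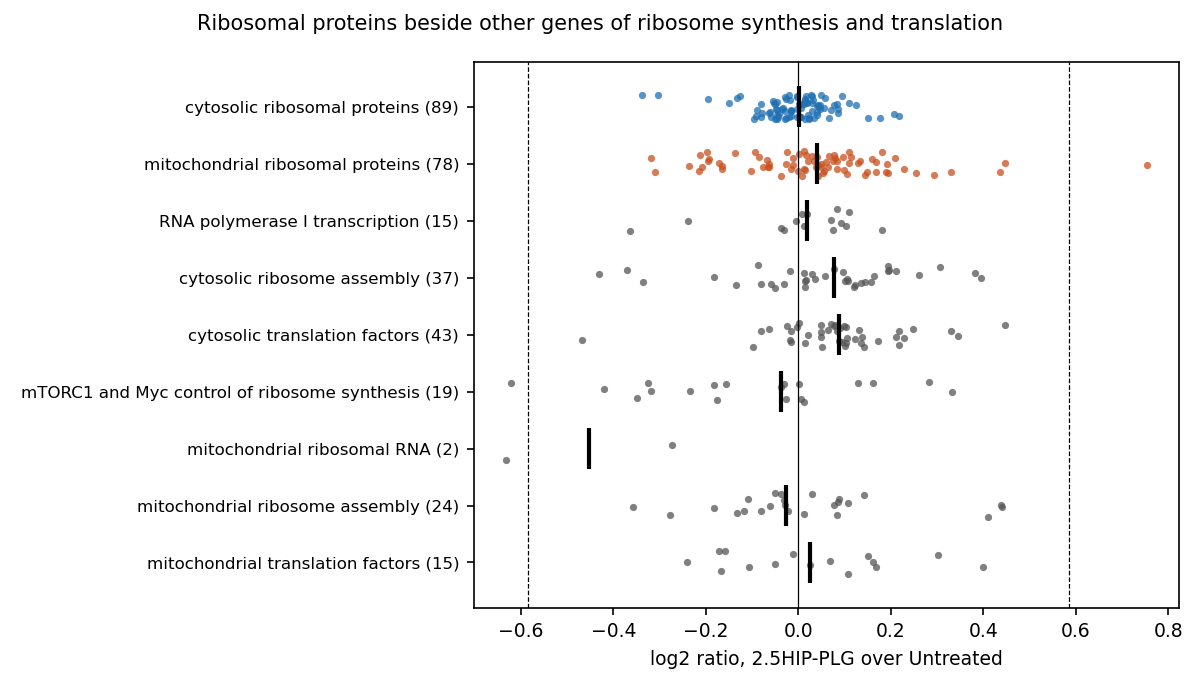
The log2 ratio of each measured gene (points, spread vertically for display only) and the median (black bars) for both types of ribosomal protein and 7 lists of other genes, with the number of genes in brackets and dashed lines at 1.5-fold in either direction. Cytosolic members cluster at 0.00, and the points outside the dashed lines are Mrps6, Eef2k and mt-Rnr2.

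The RNAs around which the mitochondrial proteins assemble had lower counts in the 2.5HIP-PLG library. The gene mt-Rnr2, for the RNA of the large subunit, had 19903 and 35870 counts and was lower (0.645, 0.634 to 0.656), and mt-Rnr1, of the small subunit, had 11621 and 16328, which was lower at 1.2 only (0.827, 0.808 to 0.847). CT010467.1, a nuclear gene annotated as ribosomal RNA, was lower as well, with 45597 and 276236 counts (0.192, 0.19 to 0.194). The 13 messages that mitochondrial ribosomes read lay the other way, with 590439 and 544360 counts in sum (1.26, 1.256 to 1.266), every interval above 1 and 2 genes higher by the rule. Of all 13902 measured genes, 3581 had an interval above 1 and 5.32% were higher. Libraries prepared for messenger RNA read ribosomal RNA only as a remainder, and its share of the RNA in the cells was not measured.

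Factors that build and serve the mitochondrial ribosome were called at 1.5 in no case, and at 1.2 the shares to read them against are again 13.5% of all measured genes higher and 16.7% lower. Of 24 assembly factors 0 were called at 1.5, and at 1.2 there were 3 higher, the helicase Ddx28 (662 and 567; 1.36), Mettl15 (105 and 90; 1.36) and Tfb1m (159 and 139; 1.33), which both methylate the small subunit RNA, and 2 lower, Mettl17 (714 and 1063; 0.781) and Rbfa (662 and 933; 0.825), which act on the small subunit. Of 15 translation factors 0 were called at 1.5 and 2 were higher at 1.2, Mrrf, which recycles ribosomes (220 and 194; 1.32), and the elongation factor Gfm1 (851 and 803; 1.23). Mtfmt, which formylates the initiator, had 401 and 551 counts (0.846, 0.742 to 0.964). The medians of these lists were -0.03 and 0.02.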

How the data were processed

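RNA from 1 library per group was prepared with the RNeasy Plus Mini and NuGen Universal Plus mRNA kits, per the labels. The submitters' processing notes name STAR, RSEM 1.3.1 and the genome build GRCm38. Which STAR version, annotation and strand setting were used is not given in the sources used here, so overlapping genes are uncertain. The authors deposited a matrix of expected counts, in which reads that match several genes are shared out, and in 11.1% and 11.8% of rows they were not whole. Groups follow the treatment label, because the injection is described identically under both samples.

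Counts were rounded and scaled by library total and TMM factor (0.996 for 2.5HIP-PLG, 1.004 for Untreated), using edgeR 4.0.16 under R 4.3.3. Genes with a count sum of at least 20 (13902) were measured. Ratios got exact conditional binomial (Clopper-Pearson) 95% intervals in Python 3.11.15 with scipy 1.17.1, numpy 2.4.6 and pandas 2.3.3, and log2 ratios had 0.5 counts added. Odds ratios are conditional with exact intervals. No molecular identifiers are described, so intervals cover counting error only. The calculation was tested on simulated counts, where 95.6% of intervals held the true ratio. These counts had counting error alone, as the intervals assume, so the test says nothing about the spread between libraries. With 1 library per group, edgeR gave scaling factors and no test.

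Lengths, overlaps and coordinates came from GENCODE M21 (54409 row IDs matched, all 171 members) and promoters from RefSeq. The members, roles and gene lists were chosen with earlier results of these data known. Genes were named as the 5 highest and 5 lowest ratios and the 3 highest levels per type, called members, paralog pairs, the 2 stalks, the 5S pair and the S18 paralogs, up to 3 extremes per list, and Myc, Larp1, Mtor, Eef1a1, Eef2, Fau and Rack1. Some genes that this rule selects, and 1 sequence, are not reported here. Other names were chosen after their values were seen. The alternatives were 4 other scalings (among them DESeq2 1.42.0 median of ratios), count minimums of 10, 100 and none, ratios of 1.2 and 2, a 99% interval, 2 counts added, unrounded counts, whole counts only, pseudogene rows added, paralogs left out and, chosen after seeing the data, Mrps6 left out. Figures were drawn with matplotlib 3.10.9.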

Additional observations from a re-analysis of the deposited data

How the results depend on the processing

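No paired analysis was possible because each group had 1 library, and for the same reason none could be left out. Of 170 values under 16 settings, 153 stayed within a set tolerance and 17 moved. The tolerance was 1.5-fold for a number of called genes and the counting error for a median, sum or odds ratio. With no count minimum, 905 genes higher and 1675 lower were thus within it. Some values could not move, such as the odds ratio under another scaling, so the 153 are not a measure of robustness. The summed cytosolic ratio of 1.005 was 0.997 with library totals, 0.986 with upper quartile scaling and 0.973 among members with whole counts, where the cytosolic median log2 ratio was -0.081. The mitochondrial sum came to 1.003 with upper quartile scaling. With whole counts only, the odds ratio between types was 1.05, the mitochondrial members called higher were 0, because Mrps6 had no whole counts (leaving it out, chosen after seeing the data, also gave 0), and the genes called lower in all were 868. At a ratio of 1.2, 5 mitochondrial members were higher and 1 lower, beside 1878 and 2324 of all genes; at a ratio of 2, 0 mitochondrial members were higher, beside 398 of all genes higher and 789 lower. With a minimum count sum of 100, 735 genes were lower. Of the 75 genes named by rule, only Mrps6, Eef2k and mt-Rnr2 were called in the main analysis. They lost their call at a ratio of 2, and none of these calls reversed under any setting. The other named genes had no call that could reverse, and 20 of them gained one at a ratio of 1.2. A ratio that crossed 1 without a call was not counted as a reversal. No cytosolic member was called under any of the 16 settings. Over the 5 scalings the cytosolic sum ran from 0.986 to 1.006 and the mitochondrial sum from 1.003 to 1.024, so differences of that size in a sum are within what scaling decides. With 1 library per group, the spread between mice and preparations is unmeasured.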

Other observations

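Among the 10 Rps6k kinases, which share the start of their name with the small subunit proteins but are not in the ribosome, 1 was higher, Rps6ka6, with only 17 and 5 counts (3.95, 1.40 to 13.7), and 0 were lower. The shares over all measured genes were 5.32% higher and 9.42% lower. Rps6ka1, the most abundant, had 7197 and 7580 counts (1.1, 1.07 to 1.14), and Rps6kb1, the kinase of Rps6, had 1369 and 1626 (0.979, 0.910 to 1.05). Rps6kb2 was lower at a ratio of 1.2 only.

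The 303 pseudogene rows named after a member held 48020 and 55047 counts, 0.213% and 0.211% of the libraries, and 85 were measured. Of these 3 were higher and 3 lower, beside 5.32% and 9.42% of all measured genes. The rows named after Rps2 held 9706 and 10731 counts beside 18746 and 21063 for Rps2 itself, those after Rpl3 held 8730 and 9654 beside 14598 and 17221, and those after Rps24 held 7241 and 8770 beside 17708 and 21286. For Rpl34 they held more than the gene, 5226 and 6210 beside 2774 and 3261 counts. Adding them to the members called none of the cytosolic genes.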
